A study of Mus musculus with 8 samples.

Results

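The comparison of 24 with 12 weeks on a high-fat diet was made on 4 of the 8 arrays of the series, 2 arrays of cells from mice fed for 12 weeks (HF12) and 2 from mice fed for 24 weeks (HF24), chosen by their labels alone. All mice were male C57BL/6, 6 weeks old when the diet began, and the diet held 60% fat. The 4 other arrays hold cells of mice kept on control chow for 12 weeks (C12) or 24 weeks (C24), 2 arrays each, and serve here as the same interval without the high-fat diet. The labels call the 12-week groups young and the 24-week groups old, so weeks on the diet and age rise together and cannot be told apart in the high-fat arrays. The cells were those of abdominal subcutaneous fat that stuck to uncoated plastic after collagenase digestion and were passaged 2 or 3 times, which the labels use as adipose-derived mesenchymal stem cells; no sort on surface markers is described. The labels do not state that paired arrays of a group hold RNA of different mice or different cultures. Every p-value here therefore reflects the scatter among these arrays alone, and that scatter may be technical.

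Levels are log2 of the processed intensity of a probe minus the 75th percentile of its array, and a change is the mean level at 24 weeks minus that at 12 weeks, given with its standard error (2 arrays per group). A gene is called, and is said to have risen or fallen, when its adjusted p from limma is under 0.05. For a gene at background (not well above it) on both arrays of the dimmer group, the change is given as at least N-fold, the brighter mean over the higher of the dim probe's own signal and the lowest signal well above background on each dim array. Changes on chow and differences between the diets are fitted values, and are no bounds for genes at background in a group. The 2 HF12 arrays correlated at r = 0.9977 and the 2 HF24 arrays at r = 0.9945 over 29462 genes, which are not independent replicates, and an HF12 with an HF24 array at 0.9762 to 0.9775. The share of probes well above background was 65.8% and 67.1% on the HF12 arrays and 57.4% and 59.2% on the HF24 arrays, and 60.2% to 66.1% on the chow arrays. The 12-week arrays lay in row 1 of the slide and the 24-week arrays in row 2, so slide row and feeding time cannot be told apart. In these bulk samples fewer cells of a type and less RNA per cell cannot be told apart either.

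Stromal markers were detected throughout, as were those of other cell types. All 19 measured genes of a list of 20 stromal and adipose progenitor surface markers were well above background on all 4 high-fat arrays; Ly6a had no probe that could be used. The platelet-derived growth factor receptor gene Pdgfra, which marks adipose progenitors, stood at 3.47 and 3.46 at 12 weeks and 3.87 and 3.74 at 24 weeks (0.34 ± 0.062). All 18 macrophage, 16 endothelial and 9 pericyte markers measured were well above background on these arrays too, so this detection does not single out stromal cells.

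Adipose stromal cells are the progenitors from which fat cells form. Plated stromal fractions also carry macrophages, endothelial and mural cells and other cells of the tissue, whose share depends on the animal, the dissection and the time in culture. Macrophages gather in the fat of obese mice, where many take on a lipid-handling programme; interferon gamma, made by T and NK cells, acts on stromal and myeloid cells, where it raises chemokines, guanylate-binding proteins and the class I antigen-presentation machinery. Stromal cells also keep a memory of the body region they come from in their Hox genes, and imprinted growth genes such as Igf2 and Cdkn1c are high in young growing tissue and fall as it matures.

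Promoters of 4 genes are printed because the members of 2 lists described below, interferon gamma targets and mitotic genes, moved together. Sequences are RefSeq windows around the annotated start on build GRCm38.p6, read 5′ to 3′ on the strand of the gene. Capitals mark TTTCNNTTTC, the core of the interferon-stimulated response element, in Gbp2 (chr3:142620413-142620712, plus strand) and Cxcl10 (chr5:92348840-92349139, minus strand). In Aurka (chr2:172370521-172370820, minus strand) and Ttk (chr9:83834439-83834738, plus strand) capitals mark CCAAT and TTTGAA, the CCAAT box and the cell cycle genes homology region. Each motif was searched on both strands, and the marked matches do not overlap.
Gbp2: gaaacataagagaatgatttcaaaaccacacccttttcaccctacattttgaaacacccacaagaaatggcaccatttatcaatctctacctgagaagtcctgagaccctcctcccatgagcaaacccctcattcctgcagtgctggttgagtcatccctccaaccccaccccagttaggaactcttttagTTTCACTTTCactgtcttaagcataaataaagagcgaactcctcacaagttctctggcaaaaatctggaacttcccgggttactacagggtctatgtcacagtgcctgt
Cxcl10: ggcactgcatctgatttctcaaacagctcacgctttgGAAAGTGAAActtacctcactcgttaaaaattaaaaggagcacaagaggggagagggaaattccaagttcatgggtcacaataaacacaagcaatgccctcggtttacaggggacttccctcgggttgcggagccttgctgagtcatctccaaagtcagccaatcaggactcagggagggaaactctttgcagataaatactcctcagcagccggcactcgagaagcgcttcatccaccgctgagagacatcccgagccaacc
Aurka: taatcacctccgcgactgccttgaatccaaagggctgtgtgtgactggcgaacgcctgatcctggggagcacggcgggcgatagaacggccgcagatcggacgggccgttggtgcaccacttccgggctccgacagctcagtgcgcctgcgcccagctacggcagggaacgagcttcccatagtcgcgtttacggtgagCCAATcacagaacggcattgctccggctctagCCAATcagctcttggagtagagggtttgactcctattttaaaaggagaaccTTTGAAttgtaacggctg
Ttk: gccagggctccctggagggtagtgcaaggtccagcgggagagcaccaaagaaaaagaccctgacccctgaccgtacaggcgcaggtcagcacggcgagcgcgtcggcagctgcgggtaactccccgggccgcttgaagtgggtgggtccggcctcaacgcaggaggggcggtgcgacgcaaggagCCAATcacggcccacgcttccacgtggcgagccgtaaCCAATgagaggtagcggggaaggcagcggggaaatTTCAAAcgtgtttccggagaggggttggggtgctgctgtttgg
The interferon motif was present in the windows of 9 of 13 interferon gamma target genes that had one and of 3.99% of all 27025 genes. TTCNNNGAA, the core of the gamma-activated site, was also searched. It was in 6 of these 13 genes and 9.55% of all, and had no match in the printed Gbp2 and Cxcl10 windows. TTTGAA was in 17 of 23 mitotic genes and 20.23% of all genes, and CCAAT in 19 of 23 and 41.06% of all. Such matches are a description of these letters and not of bound sites.

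Between 12 and 24 weeks on the high-fat diet 13804 of the 29462 genes were called, or 46.9%. Of these 6703 (22.8%) rose and 7101 (24.1%) fell, so that 48.6% of calls were increases. Scaling each array by its median moved the median of all genes from −0.0075 to 0.127 and that share to 64.8%, and leaving out the filter on dim probes moved it to 65.8%. Large decreases outnumbered large increases: 734 genes (2.49%) rose and 2060 (6.99%) fell at least 2-fold. While 2801 genes were well above background on both HF12 arrays and on no HF24 array, 90 were so the other way round. The lowest level well above background was −5.82 and −5.58 on the HF12 arrays and −4.71 and −4.89 on the HF24 arrays. A dim gene of unchanged level could therefore lose detection at 24 weeks, and these 2 counts do not measure decreases alone. On chow over the same interval 23.4% of genes rose and 22.4% fell. The test of the difference between the 2 intervals called 14.5% of genes as changing upward and 15.8% downward on the high-fat diet relative to chow. All list members have a symbol, and of the 16706 genes with one 28.5% rose and 20.1% fell on the high-fat diet (median change 0.062), 25.8% rose and 24.3% fell on chow, and the interaction was upward for 18.5% and downward for 13.7%. Counts of list members below are read against these shares. Members of a list are not replicates, and no list was tested as a whole. For 22636 of the 29462 genes the HF12 and HF24 arrays did not overlap. Lack of overlap in a gene below is read against that count.

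Genes of fat cells were among the deepest decreases. The gene of the hormone adiponectin, Adipoq, stood at 3.44 and 3.43 at 12 weeks and −5.79 and −5.73 at 24 weeks. That of the adipokine and complement enzyme adipsin, Cfd, stood at 5.41 and 5.43 at 12 weeks and −7.0 and −6.35 at 24 weeks. That of the lipid droplet coat protein perilipin, Plin1, went from 1.1 and 1.15 at 12 weeks to −4.40 and −4.58 at 24 weeks. The groups lay far apart for all 3 genes, and neither Adipoq nor Cfd was well above background on an HF24 array. Adipoq was at least 302-fold lower and Cfd at least 1190-fold lower, and Plin1 fell 49.1-fold (−5.62 ± 0.091, adjusted p = 2.82e-06, limma). Among 22 mature adipocyte genes 1 rose and 17 fell, with a median change of −1.24 against −0.0075 over all genes and 0.062 over those with a symbol. Others that fell were the hormone gene Retn (at least 23.5-fold lower), the lipid droplet gene Cidec (−2.93 ± 0.06) and the lipoprotein lipase gene Lpl (−1.17 ± 0.061). The exception that rose was Slc2a4, the insulin-responsive glucose transporter, which stood at −0.30 and −0.32 at 12 weeks and 0.60 and 0.52 at 24 weeks (0.87 ± 0.062). The leptin gene Lep was not called (0.0019 ± 0.088, adjusted p = 0.988, limma).

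On chow the same list had a lower median change and a higher start. Its median change was −2.36 with 0 genes higher and 20 lower, and the interaction placed 16 members above and 3 below the chow change. For Adipoq the difference between the intervals was not called (−0.012 ± 0.10, adjusted p = 0.941, limma). The intervals differed for Cidec by 3.56 ± 0.084 and for Cfd by −2.63 ± 0.29. Adipoq and Cfd were at background on both HF24 arrays and well above it on both C24 arrays. Their falls on the high-fat diet are therefore bounds, and the fitted difference for Adipoq does not show equal falls. The summed level of a list is the sum of its members' intensities in multiples of the array's 75th percentile; for these 22 genes it was 349 and 368 on the HF12 and 196 and 200 on the HF24 arrays, against 1294 and 1297 on the C12 and 239 and 240 on the C24 arrays.

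The factors that drive fat cell formation moved in both directions. Pparg, the master regulator of adipogenesis, stood at 3.43 and 3.46 at 12 weeks and 3.14 and 3.14 at 24 weeks, a decrease of 1.24-fold (−0.31 ± 0.051) without overlap. On chow it fell by more (−1.92 ± 0.051), and the difference between intervals was 1.62 ± 0.073. Its partner gene Cebpa fell (−1.5 ± 0.11), as did the progenitor factor Zfp423 (−1.65 ± 0.072) and the preadipocyte gene Dlk1, whose product restrains adipogenesis (−3.42 ± 0.092). The early factor genes Cebpb (0.66 ± 0.064) and Ebf1 (0.42 ± 0.058) rose. Of 22 adipogenic regulators 10 rose and 6 fell; without replicate 1 of HF12 6 rose.

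Genes of heat-producing fat were mixed. The β3-adrenergic receptor gene Adrb3 was at least 89.2-fold lower and the coactivator gene Ppargc1a at least 8.89-fold lower. Cox8b, a respiratory subunit of brown and beige fat, stood at 0.94 and 1.1 at 12 weeks and −2.32 and −2.41 at 24 weeks (−3.39 ± 0.085). Dio2, which activates thyroid hormone, fell (−2.59 ± 0.086), while the beige-fat regulator Prdm16 rose (0.98 ± 0.086). Thus 5 of 11 thermogenic genes fell and 3 rose. Among the other deepest decreases, the carbonic anhydrase gene Car3, abundant in fat and muscle, stood at 3.58 and 3.47 at 12 weeks and −2.70 and −3.24 at 24 weeks (−6.50 ± 0.19). Wfdc21 was at least 208-fold lower, and the eosinophil-associated ribonuclease genes Ear1 and Ear2 were at least 10.3-fold and at least 35.7-fold lower. Major urinary protein genes, which encode pheromone carriers, fell in 9 of 11 measured members. Mup1 was at least 15.9-fold and Mup18 at least 13.1-fold lower, and 1 member rose without replicate 2 of HF12; near-identical copies of this family can share probes, so single members are uncertain.

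**Figure D1:**
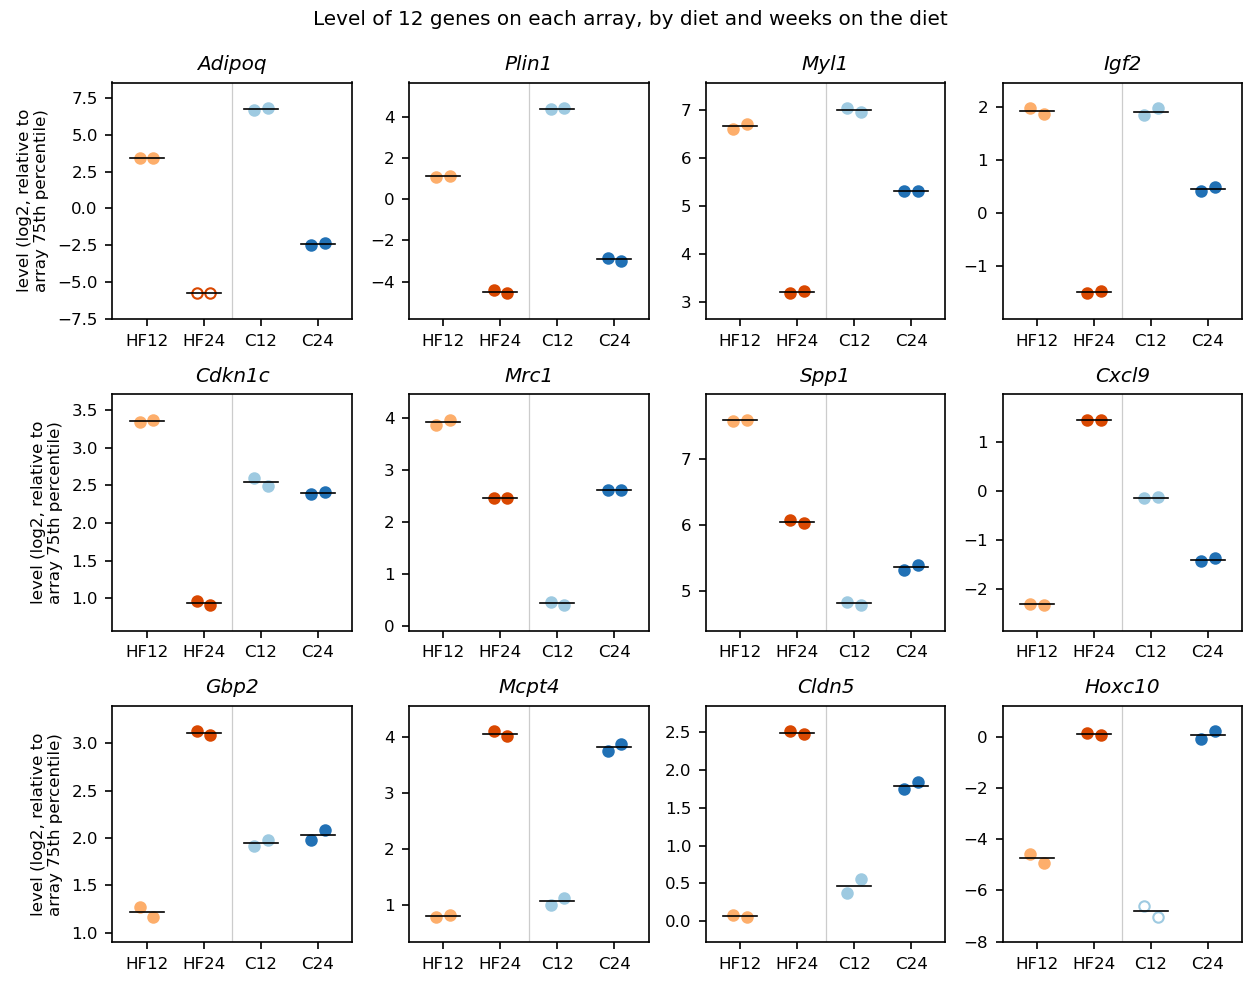
Level of 12 genes on each of the 8 arrays (log2 processed intensity relative to the 75th percentile of the array); points are arrays, lines the mean of 2 arrays, and open points mark groups in which the gene was not well above background on both arrays. The HF12 and HF24 points do not overlap in any panel, as for 22636 of the 29462 genes tested. Mrc1 and Spp1 fell on the high-fat diet and rose on chow, and Cxcl9 did the opposite.

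Skeletal muscle genes fell together. Myl1, a fast myosin light chain, stood at 6.62 and 6.72 at 12 weeks and 3.18 and 3.22 at 24 weeks. Myl4, an embryonic light chain, went from 7.0 and 7.0 at 12 weeks to 3.85 and 3.86 at 24 weeks. Tnni1, a slow troponin, went from 5.31 and 5.30 at 12 weeks to 2.01 and 1.98 at 24 weeks. The 24-week arrays were lower for each by a similar amount, 11.1-fold, 8.83-fold and 9.9-fold. The sarcomere gene Myot was at least 20.1-fold lower. Of 21 muscle and myoblast genes 19 fell and 1 rose, with a median of −2.94 on the high-fat diet and −1.35 on chow. The myogenic transcription factor genes Myod1 (−3.19 ± 0.10) and Myog (−2.86 ± 0.059), named after their values were seen, fell with them. The member that rose was the cardiac actin gene Actc1 (0.36 ± 0.091), and that call was lost when any single high-fat array was left out and with quantile normalization. Their summed level was 555 and 569 at 12 weeks and 108 and 109 at 24 weeks. The decrease was larger on the high-fat diet for Myl1, by −1.78 ± 0.091 (−1.68 ± 0.064 on chow).

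Imprinted growth genes fell beside them. Igf2, the fetal growth factor, stood at 1.98 and 1.86 at 12 weeks and −1.51 and −1.46 at 24 weeks. H19, the non-coding RNA of the same locus, stood at 5.81 and 5.85 at 12 weeks and 2.88 and 2.83 at 24 weeks. Cdkn1c, which encodes the CDK inhibitor p57, went from 3.35 and 3.37 at 12 weeks to 0.96 and 0.91 at 24 weeks. All HF24 arrays were below all HF12 arrays, a 10.6-fold, 7.83-fold and 5.39-fold decrease. Of 15 imprinted growth regulators 9 fell and 2 rose (median −1.30). Mest, another imprinted gene linked to fat expansion, was one of those that rose, from −0.98 and −1.07 at 12 weeks to 0.61 and 0.65 at 24 weeks (1.66 ± 0.072), and fell on chow (−0.27 ± 0.072). Cdkn1c was not called on chow (−0.14 ± 0.059, adjusted p = 0.0984, limma), and the intervals differed by −2.29 ± 0.084. Igf2, H19 and Cdkn1c are also expressed by myoblasts, whose markers fell in the same arrays; the part of these cells in the change was not tested.

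The insulin-like growth factor axis was split. The ligand gene Igf1 fell (−1.25 ± 0.056), as did the binding protein genes Igfbp2, from 0.32 and 0.24 at 12 weeks to −3.13 and −3.17 at 24 weeks (−3.43 ± 0.073), and Igfbp4 (−1.87 ± 0.13). Igfbp3, which carries most circulating IGF, rose from 4.24 and 4.27 at 12 weeks to 6.18 and 6.21 at 24 weeks (1.94 ± 0.051), and so did Pappa, the protease that cleaves binding proteins (1.49 ± 0.079), and the receptor gene Igf1r (0.67 ± 0.065). On chow Igfbp3 rose by 1.79 ± 0.051 and Pappa by 1.40 ± 0.079, and the difference between intervals was not called for either (0.16 ± 0.072 and 0.088 ± 0.11).

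Cdkn1a, Cdkn2a and Cdkn2b, CDK inhibitor genes that mark cell cycle arrest and senescence, were lower at 24 weeks. Cdkn1a, encoding p21, stood at 4.28 and 4.26 at 12 weeks and 3.23 and 3.18 at 24 weeks. Cdkn2a, encoding p16 and p19ARF, went from 1.36 and 1.58 at 12 weeks to 0.32 and 0.28 at 24 weeks. Cdkn2b, encoding p15, went from 2.99 and 2.97 at 12 weeks to 1.30 and 1.38 at 24 weeks. None of the 3 overlapped between groups, and the decreases were 2.09-fold, 2.25-fold and 3.12-fold. On chow Cdkn2a was not called (−0.061 ± 0.10, adjusted p = 0.651, limma), and the intervals differed by −1.11 ± 0.14 for Cdkn2a and −0.49 ± 0.13 for Cdkn1a. Cdkn1a (−0.58 ± 0.092) and Cdkn2b (−0.60 ± 0.061) fell on chow too. The nuclear lamina gene Lmnb1, which is lost in senescent cells, rose (0.68 ± 0.063), and rose by less on chow (0.27 ± 0.063). Over 26 CDK inhibitor, p53 target and senescence genes 12 fell and 5 rose. The only rise among them of at least 2-fold was that of Igfbp3 (1.94 ± 0.051). The median of −0.12 turned to 0.016 with median scaling.

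Genes of cell division rose by small, even amounts. Top2a, which untangles DNA before mitosis, stood at 2.71 and 2.65 at 12 weeks and 3.29 and 3.25 at 24 weeks. The mitotic kinase gene Aurka went from 3.19 and 3.16 at 12 weeks to 3.88 and 3.81 at 24 weeks. The spindle checkpoint kinase gene Ttk went from −0.71 and −0.69 at 12 weeks to 0.006 and −0.055 at 24 weeks. No HF24 value reached down to an HF12 value in these genes, whose increases were 1.51-fold to 1.6-fold. Of 28 mitotic genes 26 rose and 0 fell (median 0.49), and of 28 genes of the G1/S transition and DNA replication 25 rose and 1 fell (median 0.68), against 28.5% of genes with a symbol rising. The largest were the DREAM and MuvB partner gene Mybl2 (1.04 ± 0.084) and, among replication genes, the origin-licensing gene Cdc6 (1.03 ± 0.053), the methylation-maintenance gene Uhrf1 (0.95 ± 0.077) and the ribonucleotide reductase gene Rrm2 (0.82 ± 0.067). The exception was E2f2 (−0.56 ± 0.058). Mki67, the common proliferation marker, rose least among those named (0.25 ± 0.061), and its call was lost with quantile normalization and when any single high-fat array was left out.

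The mitotic genes moved differently on the 2 diets. On chow 19 of the 28 mitotic genes fell and 1 rose (median −0.31), and the interaction was called upward for all 28, against 18.5% of genes with a symbol. For Ttk the intervals differed by 1.03 ± 0.082 and for Top2a by 0.78 ± 0.079.

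**Figure D2:**
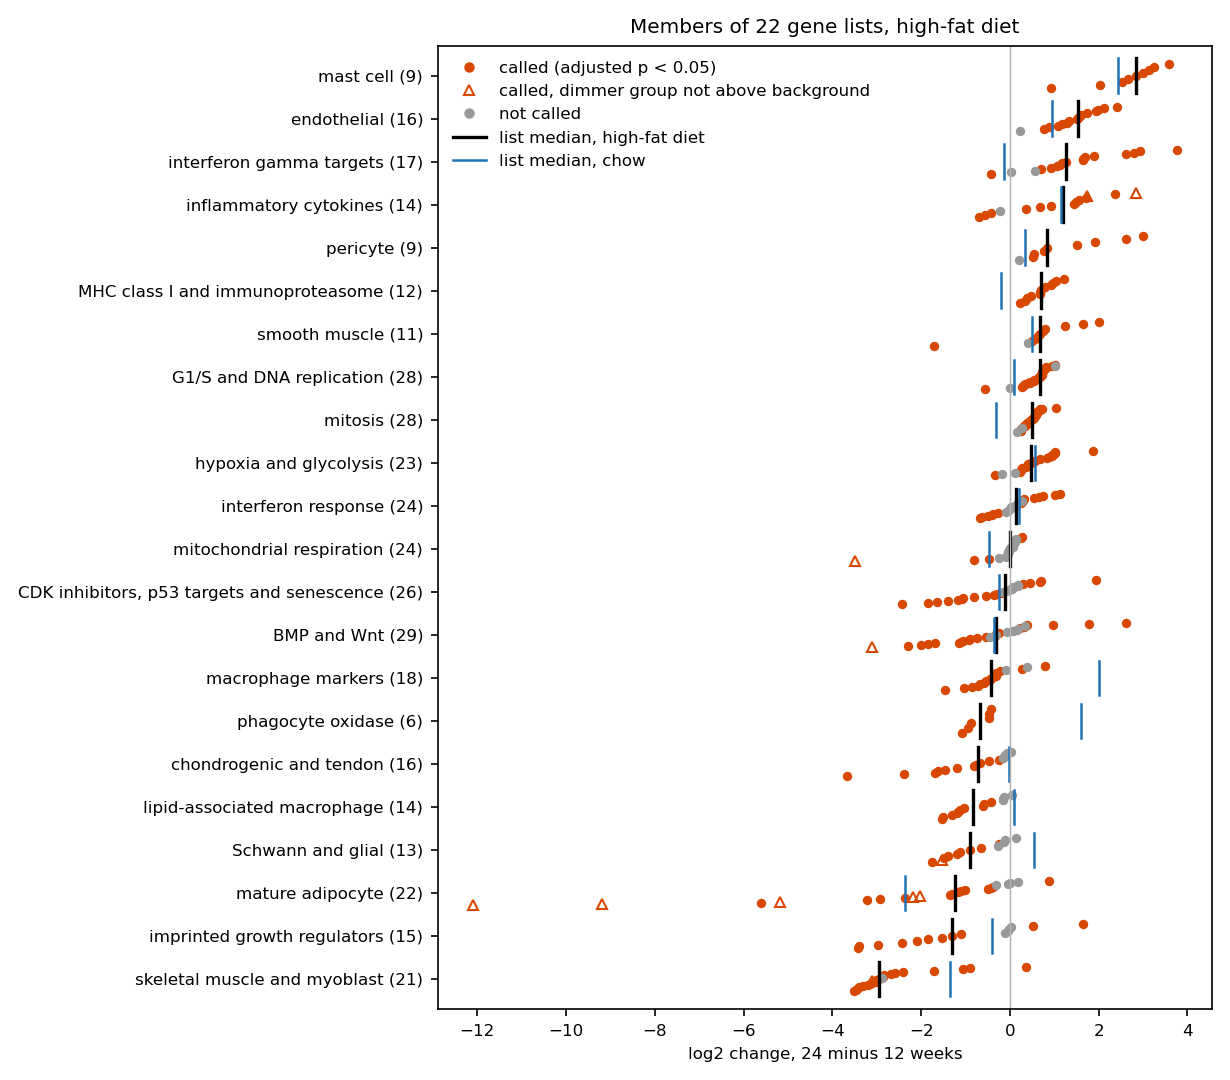
Change of every measured member of 22 gene lists on the high-fat diet (x axis, log2; each point 1 gene; list sizes in brackets), with the list median on the high-fat diet in black and on chow in blue. Medians run from −2.94 for muscle genes to 2.84 for mast cell genes; the black and blue lines lie on opposite sides of 0 for macrophage, lipid-associated macrophage, oxidase, Schwann, mitotic, class I, interferon gamma target and respiration genes (the last at 0.002 on the high-fat diet).

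Posterior Hox genes rose by large factors while anterior ones moved little. Hoxc10 stood at −4.56 and −4.94 at 12 weeks and 0.16 and 0.065 at 24 weeks. Hoxa10 went from −1.88 and −1.71 at 12 weeks to 1.30 and 1.32 at 24 weeks. Hoxc11 went from −8.02 and −7.78 at 12 weeks to −1.11 and −1.19 at 24 weeks. Hoxc11 was at background on both HF12 arrays and well above it on both HF24 arrays, at least 23.4-fold higher; Hoxc10 rose 29.1-fold, Hoxa10 8.61-fold, and Hoxa11 was at least 10.6-fold higher. Among the 8 measured genes of paralog groups 9 to 11, 7 rose and 1 fell, with a median of 2.32. Those of group 9 changed least: Hoxa9 (0.98 ± 0.12) and Hoxc9 (0.79 ± 0.076) rose and Hoxd9 fell (−0.38 ± 0.11). Among the 20 of groups 1 to 8, 4 rose and 7 fell, with a median of −0.11. Mammalian Hox genes of high number are expressed toward the tail end of the body and in the hind limb, and those of low number toward the head. Over all 28 Hox genes the 8 decreases became 5 without replicate 2 of HF12 or replicate 1 of HF24.

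Other regional factors moved in the same arrays. Pitx1, which specifies the hind limb, rose from −2.99 and −3.05 at 12 weeks to −0.017 and −0.17 at 24 weeks (2.93 ± 0.11). The forelimb factor gene Tbx5 fell (−0.59 ± 0.11). The posterior rise was shared with chow, where 6 of the 8 genes of groups 9 to 11 rose and 1 fell (median 1.65), and where 15 of the 20 genes of groups 1 to 8 fell and 1 rose (median −0.69). The interaction was upward for 11 of 28 Hox genes and downward for 1. On chow Hoxc10 rose by 6.89 ± 0.20, Hoxc11 by 6.81 ± 0.10, Pitx1 by 4.48 ± 0.11, and Tbx5 fell (−1.28 ± 0.11). The intervals did not differ by the test for Hoxc11 (−0.057 ± 0.14) or Hoxa11 (0.81 ± 0.49), and differed for Hoxc10 (−2.03 ± 0.28). Hoxc10 and Hoxc11 were at background on both C12 arrays, and Hoxa11 was well above it on only 1 of them. Hoxc11 and Hoxa11 were at background on both HF12 arrays as well. The sizes of these rises on the 2 diets can therefore not be compared. Whether the fat was taken from the same site at both times is not given in the sources used here, and its part in these changes was not tested.

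**Figure D3:**
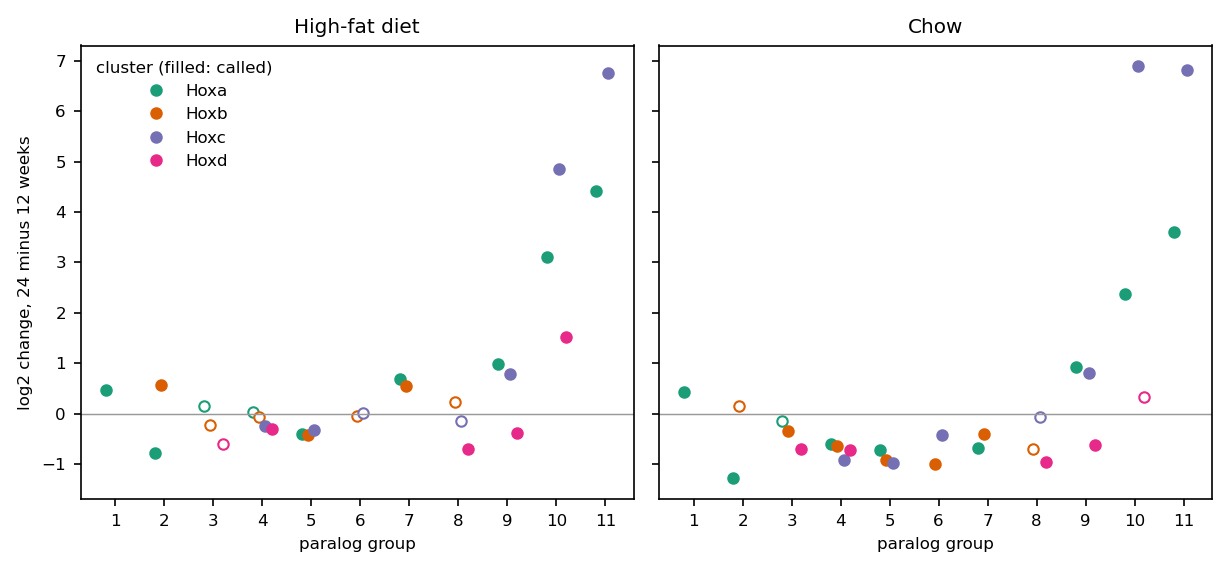
Change of 28 Hox genes between 12 and 24 weeks (y axis, log2) by paralog group (x axis) on the high-fat diet (left) and on chow (right), coloured by cluster; filled points are called. Groups 1 to 8 lie between −0.78 and 0.69 on the high-fat diet, while Hoxc10, the highest point measured at both times, is at 4.86; Hoxa11, Hoxc11 and Hoxd10 were at background on both HF12 arrays.

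Macrophage genes fell modestly on the high-fat diet. Mrc1, the mannose receptor of resident macrophages, stood at 3.88 and 3.97 at 12 weeks and 2.47 and 2.47 at 24 weeks. The signalling adaptor gene Tyrobp went from 6.36 and 6.24 at 12 weeks to 5.46 and 5.42 at 24 weeks. The lipid-sensing receptor gene Trem2 went from 6.10 and 6.15 at 12 weeks to 5.09 and 5.07 at 24 weeks. Each was lower on both HF24 arrays, by 2.74-fold, 1.81-fold and 2.06-fold. Of 18 macrophage markers 14 fell and 2 rose (median −0.41), of 14 lipid-associated macrophage genes 10 fell and 0 rose, and all 6 measured genes of the phagocyte oxidase fell. Osteopontin, Spp1, which recruits macrophages to fat, fell from 7.58 and 7.59 at 12 weeks to 6.07 and 6.02 at 24 weeks (−1.54 ± 0.057). The lysosomal lipase gene Lipa (−1.5 ± 0.058) and the oxidase genes Rac2 (−1.08 ± 0.076) and Ncf4 (−0.88 ± 0.051) are further examples. The complement genes C1qa (0.78 ± 0.088) and C1qc (0.28 ± 0.069) rose, and the call of C1qc was lost when either HF12 array or replicate 1 of HF24 was left out and with quantile normalization (0.12 with normexp and 0.12 without). All 18 macrophage markers were well above background on all 4 high-fat arrays, with a summed level of 780 and 788 at 12 and 576 and 579 at 24 weeks.

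On chow these genes rose over the same interval. There 15 of 18 macrophage markers rose and 1 fell (median 2.02), and the interaction was called downward on the high-fat diet for 17, against 13.7% of genes with a symbol. Mrc1 rose by 2.18 ± 0.059 on chow, a difference of −3.64 ± 0.084; for Fcgr3, an Fc receptor, the difference was −2.76 ± 0.085, and for Rac2 −3.01 ± 0.11. The chow arrays started lower: the summed level was 123 and 124 in C12 and 291 and 297 in C24, so that at 24 weeks it was still higher on the high-fat diet.

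Several genes that activated macrophages can express rose, with Acod1 and Arg1 among the 15 highest changes of called genes with a symbol. Acod1, which makes itaconate, stood at −2.67 and −2.53 at 12 weeks and 2.63 and 2.61 at 24 weeks. The monocyte chemokine gene Ccl12 went from 0.69 and 0.69 at 12 weeks to 3.04 and 3.10 at 24 weeks. The tumour necrosis factor gene Tnf went from −1.18 and −1.27 at 12 weeks to 0.32 and 0.23 at 24 weeks. Both HF24 arrays were above both HF12 arrays for each, 37.3-fold, 5.2-fold and 2.82-fold. The arginase gene Arg1 was at least 12.5-fold higher. Acod1, Ccl12 and Tnf rose more on chow; for Tnf the difference between intervals was −2.29 ± 0.12 and for Ccl12 −3.07 ± 0.076, while for Arg1 it was upward (3.53 ± 0.26).

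Cytokine and chemokine genes rose more broadly. The interleukin 6 gene Il6 stood at 1.80 and 1.89 at 12 weeks and 3.51 and 3.6 at 24 weeks. The cyclooxygenase gene Ptgs2, whose product makes prostaglandins, went from −0.99 and −1.04 at 12 weeks to 1.32 and 1.37 at 24 weeks. These genes had no overlap and rose 3.26-fold and 5.13-fold. Of 14 inflammatory cytokine genes 10 rose and 3 fell (median 1.19), and of 19 chemokine ligand genes 12 rose and 3 fell. The neutrophil-attracting Cxcl1 (1.97 ± 0.085) rose, and Cxcl2 was at least 3.98-fold higher. Those that fell included the interleukin 1 receptor antagonist gene Il1rn (−0.70 ± 0.089) and the chemokine gene Ccl9 (−0.81 ± 0.064). Il6, Ptgs2 and Cxcl1 rose on chow too (1.97 ± 0.093, 2.63 ± 0.091 and 2.27 ± 0.085), and none of their 3 differences was called (−0.26 ± 0.13, −0.27 ± 0.13 and −0.30 ± 0.12), whereas Il1rn rose on chow (2.27 ± 0.089). With normexp and quantile normalization the median of the cytokine list was 0.565.

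Targets of interferon gamma rose on the high-fat diet. Cxcl9, a T cell chemokine that depends on interferon gamma, stood at −2.30 and −2.34 at 12 weeks and 1.44 and 1.45 at 24 weeks. Gbp2, a guanylate-binding protein whose promoter is printed above, went from 1.27 and 1.17 at 12 weeks to 3.13 and 3.09 at 24 weeks. Iigp1, an immunity-related GTPase, went from 1.54 and 1.6 at 12 weeks to 4.37 and 4.37 at 24 weeks. Both HF24 arrays lay above both HF12 arrays, 13.6-fold, 3.72-fold and 6.96-fold. The interferon gamma gene Ifng itself stood at −8.14 and −7.53 at 12 weeks and −3.55 and −3.35 at 24 weeks, not well above background at 12 weeks and well above it at 24 weeks, at least 4.76-fold higher. Of 17 targets 14 rose and 1 fell (median 1.27); the member that fell was the myeloid factor gene Irf8 (−0.42 ± 0.071). Cxcl10, the other gene with the interferon motif printed above, rose from −0.69 and −0.57 at 12 weeks to 2.30 and 2.31 at 24 weeks (2.93 ± 0.12), and so did Ubd, which encodes a ubiquitin-like protein (2.04 ± 0.094).

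The class I antigen-presentation genes rose in full. All 12 measured members rose (median 0.70). The immunoproteasome subunit gene Psmb9 stood at 1.46 and 1.47 at 12 weeks and 2.68 and 2.70 at 24 weeks. The peptide transporter gene Tap1 went from 0.92 and 0.98 at 12 weeks to 1.90 and 1.94 at 24 weeks. These were increases of 2.34-fold and 1.96-fold without overlap. Another subunit gene, Psmb8, rose as well (1.04 ± 0.085). Class II genes rose in 4 of 7 members, such as H2-Ab1 (1.19 ± 0.069) and H2-Eb1 (1.14 ± 0.062). Antiviral genes of the type I interferon response were split: of 24, 9 rose and 6 fell, with Bst2 (0.74 ± 0.056) and Ifi44 (1.13 ± 0.068) among the first and Oas2 (−0.63 ± 0.064) and Ifit3 (−0.67 ± 0.083) among the second. The 6 decreases became 2 with median scaling, and 2 or 3 when any single high-fat array was left out.

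Few interferon gamma target and no class I increases were called on chow, whereas 6 of 7 class II genes and 12 of 24 type I response genes rose there too. On chow 3 interferon gamma targets rose and 5 fell (median −0.13), 0 class I genes rose and 7 fell, and Ifng was not well above background on any of the 4 chow arrays. The interaction was called upward for 14 of 17 targets and 12 of 12 class I genes, against 18.5% of genes with a symbol. The summed level of the targets was 52.38 and 49.46 in C12 and 30.11 and 29.95 in HF12, so the high-fat arrays started lower. At 24 weeks it was 43.54 and 41.5 in C24 and 87.71 and 88.38 in HF24. For the class I genes it was 538 and 553 in C12 and 410 and 411 in HF12. At 24 weeks that sum was 439 and 470 in C24 and 602 and 586 in HF24. Cxcl9 fell on chow (−1.26 ± 0.054), a difference of 5.03 ± 0.076; for Iigp1 the difference was 4.20 ± 0.11 and for Ubd 5.75 ± 0.13. The type I gene Oas2 had the opposite difference (−1.62 ± 0.091).

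Some genes of cytotoxic lymphocytes rose. Gzmb, the granule protease of T and NK cells, stood at −8.06 and −7.83 at 12 weeks and −2.09 and −2.14 at 24 weeks. Nkg7, a granule protein of the same cells, went from −5.55 and −5.57 at 12 weeks to −2.01 and −2.0 at 24 weeks. Neither was well above background on an HF12 array, and they were at least 12-fold and at least 11.7-fold higher at 24 weeks. The T cell receptor chain gene Cd3d rose (1.69 ± 0.071), and by more at a second probe (4.43 ± 0.10). On chow these genes rose as well, by 3.16 ± 0.094 for Gzmb, 0.82 ± 0.16 for Nkg7 and 0.55 ± 0.071 for Cd3d, and all 3 differences were called (2.67 ± 0.13, 2.73 ± 0.22 and 1.14 ± 0.10). Gzmb was at background on both C12 arrays too, and Nkg7 was well above it on only 1 C12 and 1 C24 array. The sizes of the differences for Gzmb and Nkg7 are therefore not measured. Of 12 lymphocyte genes 6 rose and 0 fell on the high-fat diet, and 6 rose and 0 fell on chow (medians 0.66 and 0.59; 1 fell on the high-fat diet when either C24 array was left out). Of the list 7 genes were well above background on all 4 high-fat arrays. Xcl1, a cytokine of activated lymphocytes, was at least 5.29-fold higher and Jchain, of antibody-secreting cells, at least 10.1-fold higher; both rose on chow as well (3.86 ± 0.35 and 5.07 ± 0.17). The summed level of the list was 4.82 and 5.32 at 12 and 6.67 and 6.79 at 24 weeks. The part of such cells in the interferon gamma pattern was not tested.

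**Figure D4:**
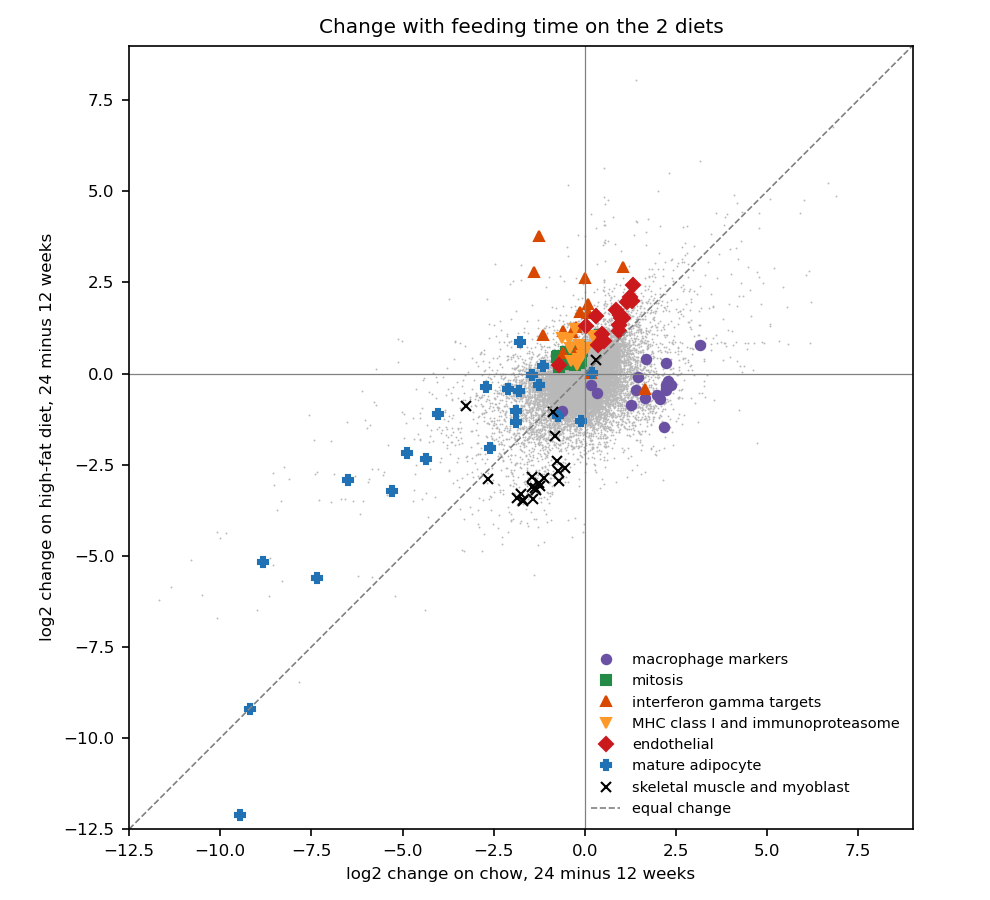
Change from 12 to 24 weeks on the high-fat diet (y axis, log2) against that on chow (x axis, log2) for 29462 genes (grey) and the members of 7 lists; the dashed line marks equal change. Most macrophage markers lie to the right of 0 with values near or below 0 on the high-fat diet, most interferon gamma targets and all class I genes lie above the line, and most muscle genes lie below it.

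The largest increase among called genes, by its bound, was that of S100a9, which encodes a calcium-binding protein of neutrophils. It stood at −7.93 and −7.70 at 12 weeks and 0.30 and 0.21 at 24 weeks and was at least 61.9-fold higher. Both HF12 arrays were at background. In the fit of every kept probe the standard error of S100a9 was 0.58, against a median of 0.093 over genes in the main fit. Its usual partner S100a8, named after its values were seen, stood at −0.41 and −0.19 at 12 weeks and −0.36 and −0.42 at 24 weeks and was not called (−0.09 ± 0.094, adjusted p = 0.469, limma). In the neutrophil list of 7 measured genes, 3 rose and 1 fell. Lcn2 rose (0.89 ± 0.11) and Csf3r fell (−0.41 ± 0.069). With every kept probe fitted, a second Lcn2 probe was not called (1.04 ± 0.52, adjusted p = 0.153, limma).

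Mast cell genes rose without exception. The mast cell protease gene Mcpt4 stood at 0.80 and 0.82 at 12 weeks and 4.10 and 4.02 at 24 weeks. Cma1, another protease of these cells, went from 0.33 and 0.25 at 12 weeks to 3.46 and 3.41 at 24 weeks. Hdc, which makes histamine, went from −4.29 and −4.13 at 12 weeks to −0.64 and −0.60 at 24 weeks. The 24-week arrays were above the 12-week arrays by 9.5-fold, 8.85-fold and 12-fold. The Fc receptor chain gene Ms4a2 rose too (2.83 ± 0.10). All 9 measured members rose (median 2.83), and their summed level went from 4.83 and 4.84 to 37.5 and 39.4. The rise was shared with chow, where 9 of 9 rose (median 2.43); the interaction was upward for 5 of 9, by 0.50 ± 0.11 for Mcpt4 and 0.83 ± 0.15 for Hdc, and was not called for Ms4a2 (0.42 ± 0.14).

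Vessel genes rose. The endothelial junction gene Cldn5 stood at 0.08 and 0.055 at 12 weeks and 2.51 and 2.48 at 24 weeks. The endothelial transcription factor gene Erg went from −2.65 and −2.61 at 12 weeks to −0.46 and −0.57 at 24 weeks. The guidance receptor gene Robo4 went from 1.53 and 1.63 at 12 weeks to 3.52 and 3.54 at 24 weeks. The HF24 arrays were higher throughout, 5.38-fold, 4.33-fold and 3.87-fold. Of 16 endothelial genes 15 rose and 0 fell (median 1.53), all 16 well above background on the 4 high-fat arrays, with a summed level of 35.8 and 37 and then 99.2 and 102. Pericyte genes rose in 8 of 9 (median 0.83), led by the channel gene Kcnj8, from −1.13 and −1.11 at 12 weeks to 1.85 and 1.90 at 24 weeks (3.0 ± 0.091), and the signalling regulator gene Rgs5 (2.62 ± 0.078). Smooth muscle genes rose in 9 of 11, with the myosin gene Myh11 (2.02 ± 0.063) and Lmod1 (1.64 ± 0.09); the 1 that fell was desmin, Des (−1.70 ± 0.071), which skeletal muscle shares.

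The endothelial rise was larger than that on chow. There 14 members rose and 1 fell (median 0.94), and the interaction was called upward for 13 of 16. For Cldn5 the difference was 1.1 ± 0.11, and for Kcnj8 2.66 ± 0.13, whereas Rgs5 (0.23 ± 0.11) and Myh11 (−0.026 ± 0.089) did not differ by the test.

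Schwann and glial genes fell. The neurotrophin receptor gene Ngfr stood at 3.24 and 3.27 at 12 weeks and 1.49 and 1.51 at 24 weeks (−1.75 ± 0.088). The groups did not overlap. Of 13 members 9 fell and 0 rose (median −0.90), against 8 higher and 1 lower on chow, and the interaction was downward for 10. Ngfr rose on chow (0.61 ± 0.088), a difference of −2.36 ± 0.12. Keratinocyte genes were mixed, with 6 of 15 higher and 4 lower. The keratin genes Krt14 (1.81 ± 0.20) and Krt5 (1.34 ± 0.13) rose by less than on chow (5.56 ± 0.20 and 5.08 ± 0.13), and Perp, a junction gene, fell (−0.65 ± 0.057) where it rose on chow (2.59 ± 0.057).

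Growth factor and matrix genes were split. The lymphangiogenic gene Vegfd stood at 5.40 and 5.43 at 12 weeks and 3.31 and 3.27 at 24 weeks (−2.12 ± 0.06). Fgf10, which sustains preadipocytes, went from 0.53 and 0.58 at 12 weeks to −1.14 and −1.16 at 24 weeks (−1.71 ± 0.058). The placental growth factor gene, Pgf, went from −1.33 and −1.35 at 12 weeks to 0.50 and 0.51 at 24 weeks (1.85 ± 0.058). The first pair fell and Pgf rose, all without overlap. Among 25 secreted growth factor genes 12 rose and 8 fell. Of 29 BMP and Wnt genes 6 rose and 15 fell. Bmp2, an inducer of bone and fat fate, rose from −1.20 and −1.09 at 12 weeks to 1.48 and 1.46 at 24 weeks (2.61 ± 0.071), and so did the BMP antagonist gene Grem1 (1.78 ± 0.052), while the Wnt antagonist gene Sfrp1 fell (−1.85 ± 0.10) and the Wnt enhancer gene Rspo3 fell (−2.29 ± 0.10). Sfrp1 was not called on chow (0.013 ± 0.10), and the intervals differed by −1.86 ± 0.14.

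Many tendon and cartilage genes fell, and collagen genes changed less. The tendon matrix gene Thbs4 stood at 4.58 and 4.65 at 12 weeks and 0.87 and 1.00 at 24 weeks. The tendon transcription factor gene Scx went from 0.69 and 0.73 at 12 weeks to −1.65 and −1.69 at 24 weeks. The groups were apart by 12.8-fold and 5.2-fold. Of 16 members 11 fell and 0 rose. Of 18 collagen genes 7 rose and 2 fell (median 0.12), with the basement membrane gene Col18a1 (1.16 ± 0.066) and the collagen VI gene Col6a3 (0.91 ± 0.063) highest and Col14a1 (−0.69 ± 0.074) among those that fell. Of 18 myofibroblast and TGF-beta response genes 11 rose and 2 fell, with the activin subunit gene Inhba (1.76 ± 0.07) and Thbs1 (1.28 ± 0.06) among the first and the TGF-beta binding gene Ltbp2 (−0.62 ± 0.066) and Tgfbi (−0.32 ± 0.064) as the second. Tgfbi was not called without replicate 1 of HF12 or with median scaling (−0.18).

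Most hypoxia and glycolysis, ATF4 and immediate early genes rose on both diets. The lactate exporter gene Slc16a3 stood at 3.45 and 3.46 at 12 weeks and 5.33 and 5.32 at 24 weeks (1.87 ± 0.05). The hypoxia factor gene Hif1a went from 3.69 and 3.76 at 12 weeks to 4.62 and 4.61 at 24 weeks (0.89 ± 0.056). Both rose without overlap, and rose on chow too (2.10 ± 0.05 and 0.81 ± 0.056) with no called difference (−0.23 ± 0.071 and 0.077 ± 0.079). In the list of hypoxia and glycolysis genes 20 of 23 rose and 1 fell (Car9, −0.32 ± 0.088, a call lost when any single high-fat array was left out, with quantile normalization and with median scaling, at −0.19), and in that of ATF4 and unfolded protein response genes 16 of 24 rose and 1 fell. On chow 16 and 19 members of these lists rose. The serine and glycine synthesis genes Shmt2 (1.09 ± 0.068) and Psat1 (1.01 ± 0.059) rose most in the second list, and the stress factor gene Atf3 fell, from 3.30 and 3.28 at 12 weeks to 1.69 and 1.68 at 24 weeks (−1.61 ± 0.05). On chow Atf3 rose (0.86 ± 0.05), a difference of −2.47 ± 0.07. Of 20 immediate early genes 14 rose and 2 fell, led by Nr4a1 (2.18 ± 0.067) and Fosl1 (1.69 ± 0.12), and on chow 17 rose. The AP-1 genes Fos (−0.48 ± 0.086) and Jun (−0.23 ± 0.075) were those that fell, and the call of Jun was lost when any single high-fat array was left out, with median scaling (−0.098), with no filter and with the replicate block.

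Few genes of the list of mitochondrial respiration and its regulation were called, and none of those called in it encodes a respiratory chain subunit. The subunit gene Cox8b, which fell, was counted in the thermogenic list instead. Of the 24 respiration genes 2 rose and 3 fell on the high-fat diet (median 0.002). On chow 22 fell (median −0.47), and the interaction was called upward for 21. The members that fell were Ppargc1a and the fatty acid oxidation genes Cpt1a (−0.80 ± 0.082) and Acadm (−0.46 ± 0.066); Cs, encoding citrate synthase (0.28 ± 0.057), and Tfam, a mitochondrial DNA factor (0.26 ± 0.08), rose, but at most 1 of them was called when any single high-fat array was left out, and neither with quantile normalization. With median scaling 9 members rose and with quantile normalization 9 fell, so the direction on the high-fat diet depends on the scaling.

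The 2 intervals share no arrays. Of the genes called on the high-fat diet 6836 were called in the same direction on chow, which is 49.5% of the high-fat and 50.6% of the chow calls, and 1663 were called in opposite directions. Another 5305 were not called on chow, of which 1025 rose and 1546 fell on the high-fat diet with a called difference between the intervals. Over all genes the changes correlated at r = 0.494, with genes not independent and each pair of intervals on the same 2 slide rows. Most fat cell and muscle genes fell, and most mast cell, vessel, glycolysis and immediate early genes rose, on both diets, although called differences in size were common: 16 upward and 3 downward of 22 fat cell genes, 1 and 17 of 21 muscle genes and 13 upward of 16 endothelial genes. The medians of the mitotic, interferon gamma target, class I, macrophage and Schwann lists had opposite signs on the 2 diets.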

How the data were processed

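Each array measured total RNA with 1 colour (Cy3) on an Agilent mouse 8x60K array. Per the file headers and the submitters' processing notes, the deposited processed intensity is the background-subtracted, spatially detrended signal of a spot from Agilent Feature Extraction 11.0.1.1; arrays were not scaled to each other. Median spot and local background intensities, also deposited, entered 1 alternative. The authors also deposited a table of log2 values, which differs from the log2 processed intensity by an offset that is fixed within an array (−9.99 to −9.79); the rule behind the offset is not stated.

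Of 59305 non-control spots covering 56605 probes, 367 were dropped because any array carried an outlier flag for them. Probes well above background on both arrays of at least 1 group were kept (37476), 1 per gene with the highest mean, giving 29462 genes, 16706 with a symbol. Symbols came from RefSeq accessions (1 symbol for 58.39% of probes). limma 3.58.1 in R 4.3.3 fitted 4 group means to 8 arrays (4 residual and 1.9 prior degrees of freedom), two-sided, Benjamini-Hochberg adjusted over all genes; the same model gave the interval on chow and the interaction. The fit was tested on simulated data. Python 3.11.15, pandas 2.3.3 and matplotlib 3.10.9 made tables and figures. The number of arrays limits the precision.

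Gene lists and members were chosen with earlier results of these data known. Genes named were eligible by a rule: the 15 highest and 15 lowest changes among called genes, up to 4 called members of each list per direction by smallest p, the 8 smallest interaction p per direction, and 9 genes fixed by name (Cdkn1a, Cdkn2a, Il6, Pparg, Adipoq, Mki67, Lep, Tnf and Pdgfra). Others are marked as named after their values were seen, apart from Hoxa9, Hoxc9, Hoxd9 and Hoxd10. Those Hox genes also fell outside the rule, and the counts of named genes below leave them out. Alternatives were normexp with an offset of 50 and quantile normalization, quantile normalization alone, median scaling, the value table, 3 other filters on dim probes, every kept probe, an intensity trend, a fit restricted to the 2 groups of a comparison, a replicate block, and each array omitted in turn; leaving out only flagged spots was added after seeing the data. Normexp used the deposited medians. Replicate numbers did not pair the arrays.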

Additional observations from a re-analysis of the deposited data

Results flagged for a closer look

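The 170 genes counted here are those named with values in the text other than Hoxa9, Hoxc9, Hoxd9 and Hoxd10. Of them 133 had a change over the feeding time that differed between the diets by the interaction test of limma (adjusted p under 0.05). The difference was upward for 65 and downward for 68 on the high-fat diet relative to chow. The 39 listed here were called in opposite directions on the 2 diets, had the smallest interaction p, or were fixed by name; each value is the log2 change on the high-fat diet minus that on chow, and the highest adjusted p among them is 0.0366. Genes that fell on the high-fat diet and rose on chow were Mrc1 (−3.64), Perp (−3.24), Rac2 (−3.01), Il1rn (−2.97), Fcgr3 (−2.76), Ncf4 (−2.59), Atf3 (−2.47), Mmp12 (−2.36), Ngfr (−2.36), Trem2 (−2.19), Car9 (−2.13), Tyrobp (−2.13), Spp1 (−2.08), Irf8 (−2.08), Fos (−1.93), Lipa (−1.74), Oas2 (−1.62), Ccl9 (−1.41), Tgfbi (−1.15) and Ltbp2 (−0.92). The macrophage and phagocyte genes Mrc1, Trem2, Tyrobp, Fcgr3, Rac2, Ncf4 and Lipa are among them. Genes that rose on the high-fat diet and fell on chow were Mki67 (0.57), Cs (0.68), Top2a (0.78), Ttk (1.03), C4b (1.09), Psmb9 (1.49), Tap1 (1.58), Mest (1.92), Slc2a4 (2.65), Iigp1 (4.20), Cxcl9 (5.03) and Ubd (5.75); the interferon gamma targets and class I genes Cxcl9, Iigp1, Ubd, Psmb9 and Tap1 are among these. Genes called on the 2 diets in 1 direction, or on 1 diet alone, were Ccl12 (−3.07), Tnf (−2.29), Cdkn2a (−1.11), Cdkn1a (−0.49), Pparg (1.62), Cidec (3.56) and Mup1 (5.48). Pparg and Cidec fell less on the high-fat diet, and Tnf and Ccl12 rose less. Mup1 was at background on all C24 and HF24 arrays, so the sizes of its falls on the 2 diets cannot be compared. It started at 4.471 and 4.51 in C12 and −0.853 and −0.775 in HF12. With 2 arrays in a group no array could be tested as standing apart from its group.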

How the results depend on the processing

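Of 3378 combinations of a named gene with 1 of 20 alternatives, 3325 kept their direction and side of the threshold, 47 lost the call and 6 turned sign. By this count 160 of 170 genes were the same throughout. With every kept probe, it took the probe of a gene with the smallest change in the gene's direction. The uncalled second probe of Lcn2 is therefore not in it. With normexp and quantile normalization 417 genes rose and 745 fell at least 2-fold on the high-fat diet, 695 and 887 on chow, and 581 and 897 were higher and lower in the interaction. With median scaling 10063 genes rose on the high-fat diet and 6889 were higher in the interaction. With no filter on dim probes 13233 genes rose on the high-fat diet (1291 at least 2-fold) and 12806 on chow, of 45354 tested. Over the 24196 genes well above background on all 8 arrays 1035 fell at least 2-fold on the high-fat diet and 1020 on chow, and 666 were at least 2-fold higher in the interaction. Leaving out 1 array in turn, the share of genes called on the high-fat diet was 32.1% to 46.7%; genes higher ranged from 4105 to 6759 (4105 without replicate 1 of HF12, 4446 without replicate 1 of HF24), and higher in the interaction from 2724 (without replicate 1 of HF12) to 3670. A lone array of a group was assumed to vary like the other groups. With replicate number as a block, 43.0% of genes were called, 12424 of them shared with the fit without it; the arrays share only a number (r = 0.0095 between the within-group differences of HF12 and HF24). The change of Lep, not called in any setting, was −0.00058 with the value table, −0.0049 with only flagged spots left out, and −0.070 to 0.074 with 1 array left out (−0.070 without replicate 1 of HF24, −0.032 without replicate 2 of HF12). That of S100a8 was 0.045 with median scaling and −0.20 to 0.019 with 1 array left out (0.019 without replicate 2 of HF12). The cause of these shifts was not tested, apart from the change in genes tested under the filters. Genes at background in a group have no measured fold, and 2 arrays per group limit the precision.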

Other observations

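More complement genes fell than rose. C3, on which all complement pathways converge, stood at 5.66 and 5.69 at 12 weeks and 4.73 and 4.83 at 24 weeks (−0.89 ± 0.065). Cfb, the activator of the alternative pathway, rose from 3.03 and 3.10 at 12 weeks to 4.12 and 4.13 at 24 weeks (1.06 ± 0.081), and so did C4b (0.55 ± 0.052). The groups did not overlap for C3, Cfb or C4b. Of 16 complement genes 4 rose and 10 fell on the high-fat diet and 4 rose and 11 fell on chow. Of 23 lysosomal genes 10 fell and 0 rose, among them the cathepsin genes Ctsd (−0.43 ± 0.086) and Ctsz (−0.40 ± 0.072). Macrophages carry many lysosomes and their markers fell in the same arrays; their part in this was not tested.

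The insulin receptor substrate gene Irs1 fell from 2.33 and 2.31 at 12 weeks to 1.59 and 1.59 at 24 weeks (−0.73 ± 0.053) and the glucose transport regulator gene Tbc1d4 fell (−1.04 ± 0.091). Both fell further on chow (−1.62 ± 0.053 and −1.76 ± 0.091). Of 15 insulin signalling genes 5 rose and 4 fell. Detoxification genes moved downward in part: the glutathione transferase gene Gsta4 went from −0.89 and −0.83 at 12 weeks to −2.86 and −2.92 at 24 weeks (−2.03 ± 0.059) and the catalase gene Cat (−0.68 ± 0.085) fell, within 9 of 20 members lower and 6 higher. Sterol synthesis genes fell in 9 of 19 members and rose in 2, with Nsdhl (−0.76 ± 0.073) lower and no called difference from chow for it. The clock gene Per1 rose (0.74 ± 0.062), within 7 of 16 clock genes higher and 2 lower; the hour of collection is not given in the sources used here.

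The mesothelial gene Msln stood at −1.02 and −0.96 at 12 weeks and −3.61 and −3.78 at 24 weeks (−2.71 ± 0.076), without overlap, and was not called on chow (0.0027 ± 0.076). The bone mineralization gene Alpl fell (−1.07 ± 0.16), and Tnfrsf11b, which encodes the decoy receptor osteoprotegerin, rose (1.38 ± 0.08). The elastase gene of macrophages, Mmp12, fell (−1.38 ± 0.083) and rose on chow (0.99 ± 0.083), while the crosslinking enzyme genes Loxl2 (0.94 ± 0.084) and Loxl3 (1.33 ± 0.069) rose on both diets. Of 24 genes of matrix proteases, their inhibitors and crosslinkers 11 rose and 5 fell.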
